A study of Mus musculus with 6 samples.

Results

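The genes of the proteasome were examined in epididymal white adipose tissue of mice that lacked the RNA-binding protein HuR in adipocytes. Members were all genes whose symbol starts with Psma, Psmb, Psmc, Psmd, Psme, Psmf or Psmg followed by a digit, which gave 48 of the 13116 genes in the gene table and 85 of the 24946 transcripts in the transcript table. The 48 genes comprised 7 alpha and 4 structural beta subunits of the 20S core and its 3 constitutive and 3 inducible catalytic subunits. The rest were 6 ATPases and 11 other subunits of the 19S regulatory particle, 4 activators, 1 inhibitor, 7 assembly chaperones and 2 other genes. These 2, Psmc3ip and Psme2b, fit the symbols but were set apart. Psmc3ip encodes no subunit, whereas Psme2b has a coding sequence of 720 bases, as long as that of a Psme2 transcript. Whether Psme2b yields a subunit was not tested. Expression was compared between 3 HuRAKO mice (HuRflox/flox:AdipoQ-Cre+) and 3 control mice (HuRflox/flox:AdipoQ-Cre-). All 6 were C57BL/6 mice that carried both floxed alleles and were fed a high-fat diet (HFD) for 16 weeks from 8 weeks of age, so no group on normal chow and none without floxed alleles entered the comparison. The Adipoq promoter drives Cre in adipocytes, whereas RNA was taken from the whole fat pad, which also holds immune, vascular and mesothelial cells. Fewer cells of a type and less RNA per cell therefore cannot be told apart in these values.

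The proteasome degrades proteins tagged with ubiquitin. Its barrel-shaped 20S core is built of outer alpha and inner beta rings, and the beta subunits Psmb5, Psmb6 and Psmb7 carry the peptidase sites. The 19S particle caps the core, binds ubiquitin chains, and unfolds and feeds in the substrate by means of its ring of Psmc ATPases. In immune cells, and in other cells exposed to interferon gamma, the catalytic subunits Psmb8, Psmb9 and Psmb10 replace Psmb5, Psmb6 and Psmb7 in newly built cores to form the immunoproteasome, which generates peptides for MHC class I presentation. The same cytokine induces PA28, a ring-shaped activator made of Psme1 (PA28 alpha) and Psme2 (PA28 beta). HuR, encoded by Elavl1, binds U-rich and AU-rich stretches of mRNAs and is known to stabilize many of its targets.

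Expression was given as FPKM, fragments counted relative to transcript length and library size, which sets levels of different genes on a per-length scale. Elavl1 itself was measured at 4.66, 5.24 and 5.63 FPKM in HuRAKO mice 1 to 3 and at 3.93, 4.85 and 4.98 FPKM in control mice 1 to 3 (log2 difference 0.15 ± 0.12 SE, adjusted p = 0.807 from limma). These whole-tissue values did not separate the genotypes, and mice are named by their labels throughout. By contrast, the paper reports less HuR mRNA by qPCR and less protein in adipose tissue of HuRAKO mice, and less protein in their mature adipocytes. The reason for this difference was not tested. Summed gene FPKM lay between 250270 and 264055 per mouse. One library stood apart before any proteasome result is considered. Control mouse 3 lay at 48.3 on the first principal component of all tested genes (41.1% of the variance), against -14.5 to -3.09 for the other 5 mice. It was the highest of the 6 mice in 14 of 14 macrophage markers and in 8 of 8 listed T and NK cell markers, and in 0 of 10 adipocyte markers. The summed level of macrophage markers ranged from 1231 to 1966 FPKM in HuRAKO mice and from 1113 to 3258 FPKM in control mice, that of T and NK cell markers from 7.31 to 17.5 FPKM in HuRAKO mice and from 7.54 to 59.4 FPKM in control mice, and that of adipocyte markers from 4730 to 5308 FPKM in HuRAKO mice and from 3776 to 5488 FPKM in control mice. None of these markers was listed at 0 in any mouse. The summed levels of 3 other marker lists did not overlap between the groups. Of 5 mesothelial markers, 4 were lower in HuRAKO mice at an unadjusted p under 0.05 in limma (4.16% of all genes were), with a median log2 difference of -0.94 and a summed level of 86.3 to 120 FPKM in HuRAKO mice and 155 to 246 FPKM in control mice. Control mouse 3 was highest in 4 of the 5. Of 5 endothelial markers, 2 were higher (3.86% of all genes), with a median of 0.64 and a summed level of 266 to 429 FPKM in HuRAKO mice and 155 to 259 FPKM in control mice. The 3 dendritic cell markers tested summed to between 11.1 and 20.8 FPKM in HuRAKO mice and between 6.67 and 7.69 FPKM in control mice. Only 1 of them was higher, Itgax, at 10.3, 3.96 and 15.1 FPKM in HuRAKO mice and 2.40, 1.77 and 2.96 FPKM in control mice. Zbtb46 and Clec9a each overlapped between the groups, so the sum of this list followed Itgax. Of 10 adipocyte markers 1 was higher (3.86% of all genes), and 0 of 3 B cell markers tested passed (8.03% in either direction). The part of these cells in the level of any proteasome gene was not tested.

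Few proteasome genes differed between HuRAKO and control mice at the level of the whole gene. All 48 passed the filter of a mean of at least 0.5 FPKM, and their mean levels ranged from 0.767 FPKM for Psmc3ip to 101 FPKM for Psmb1, with a median of 24.3 FPKM, against a median of 6.07 FPKM over all 12847 genes tested. Differences are given as HuRAKO minus control on the log2(FPKM + 1) scale, which understates changes of weakly expressed genes. Their median over the 48 genes was -0.02, that over all genes tested was -0.01, and 22 members lay above 0 and 26 below. At an unadjusted p under 0.05 from limma, 2 of 48 genes differed, Psmd1 and Psme3, both higher in HuRAKO mice, where 8.03% of all genes tested passed in either direction and 3.86% in this direction. No member was lower at that level (4.16% of all genes). After Benjamini-Hochberg adjustment over all genes 0 of 48 passed in limma, as did 1 gene in the whole table (0.00778%), and the smallest adjusted p among members was 0.495. The study's thresholds, an unadjusted p under 0.05 with a fold over 1.5, were met by 0 members and by 2.62% of all genes.

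**Figure D1:**
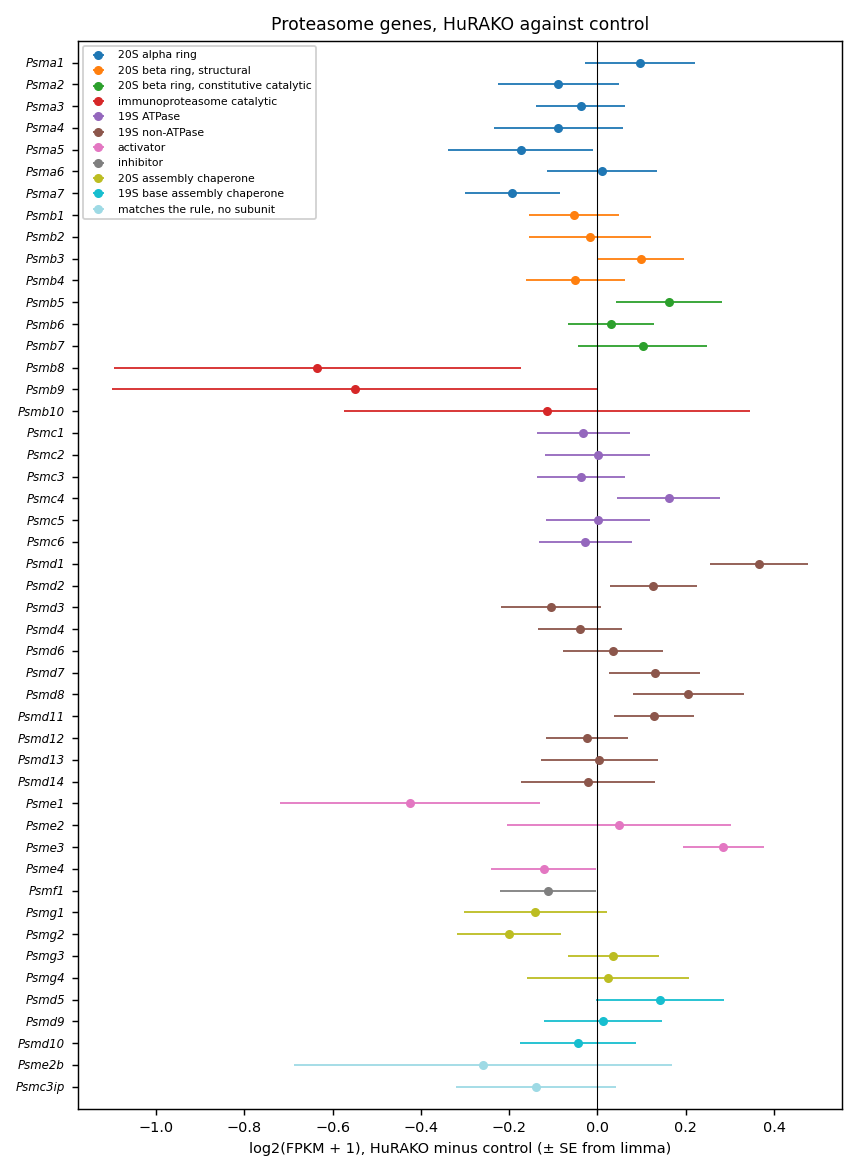
Difference between HuRAKO and control mice for each of the 48 proteasome genes on the log2(FPKM + 1) scale (x axis; point, limma estimate; line, SE; 3 mice per group), grouped and coloured by class. Core and 19S genes lie between -0.19 and 0.37 with short lines. Psmb9, Psmb8, Psmb10, Psme2b, Psme1 and Psme2 have the 6 widest, with SEs of 0.25 to 0.55. The last class, Psmc3ip and Psme2b, was set by the form of the symbol.

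Within the 20S core, alpha subunits form the gated outer rings. The 14 constitutive core genes had a median difference of -0.03 (range -0.19 to 0.16), and 0 of 14 passed an unadjusted p of 0.05 (8.03% of all genes tested). Psma7 was the core gene with the smallest p and was measured at 26.4, 29.6 and 30.1 FPKM in HuRAKO mice and at 31.7, 31.6 and 35.6 FPKM in control mice. Every HuRAKO mouse lay below every control mouse, but the gap between the groups was small beside the spread within them (log2 difference -0.19 ± 0.11 SE, adjusted p = 0.73 from limma). It was the only one of 48 members without overlap in this direction, as were 7.68% of all genes. Psma5 had 43.1, 35.8 and 35.7 FPKM in HuRAKO mice against 39.3, 37.9 and 53.3 FPKM in control mice, a difference of -0.17 ± 0.16 SE (adjusted p = 0.828 from limma) with control mouse 3 on its own above the rest. The structural subunit Psmb1 was the most abundant member, at 107, 93.9 and 96.0 FPKM in HuRAKO mice and 99.5, 101 and 107 FPKM in control mice, and the ranges overlapped.

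Across the 6 mice the constitutive core varied little. Its coefficient of variation (CV, SD over mean) had a median of 9.82% over 14 genes, and that of the 17 subunits of the 19S particle was 7.57%, against 17.4% over all genes tested. These genes were also more abundant, with median levels of 37.6 FPKM for the core and 22.7 FPKM for the 19S particle, against 6.07 FPKM. The CVs were not compared at matched levels, so the part of abundance was not tested.

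Subunits of the 19S particle were likewise close to 0, with a median difference of 0.00 over 17 genes, 10 above and 7 below. The 6 ATPases ranged from -0.04 to 0.16. Psmc4, an ATPase of the ring that unfolds substrates, had the largest difference of the 6, with 22.8, 20.8 and 22.2 FPKM in HuRAKO mice and 20.1, 17.2 and 21.4 FPKM in control mice, and its groups overlapped (adjusted p = 0.787 from limma). Among the 11 other subunits, Psmd1 stood out. Psmd1 encodes the large scaffold of the 19S base on which ubiquitin receptors dock, and it was measured at 22.7, 20.4 and 20.9 FPKM in HuRAKO mice and at 17.2, 17.1 and 14.7 FPKM in control mice. The groups did not overlap, with means of 21.3 ± 1.20 FPKM in HuRAKO mice and 16.3 ± 1.46 FPKM in control mice (SD, n = 3 each). The ratio of the means was 1.30 and the log2 difference was 0.37 ± 0.11 SE (95% confidence interval 0.10 to 0.63, adjusted p = 0.495 from limma). Its unadjusted p stayed under 0.05 in all 15 alternative fits, whereas its adjusted p ranged from 0.354 to 0.78. The single listed transcript of Psmd1, Psmd1-201, differed by the same amount, 0.37 ± 0.15 SE (adjusted p = 0.757 from limma), and lost its unadjusted call in 10 of 15 alternatives.

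Psmd11, a lid subunit, was also without overlap between groups, at 10.48, 10.65 and 10.97 FPKM in HuRAKO mice and 9.86, 9.90 and 9.38 FPKM in control mice. The 2 ranges lay close together, and the difference of 0.13 ± 0.09 SE did not pass the test (adjusted p = 0.787 from limma). With Psmd1 and Psme3 it made 3 of 48 members whose HuRAKO mice all exceeded the controls, as did 7.04% of all genes. Psmd8, another lid subunit, had 33.5, 38.3 and 30.1 FPKM in HuRAKO mice against 27.8, 31.9 and 28.0 FPKM in control mice, with overlapping groups (0.21 ± 0.13 SE, adjusted p = 0.754 from limma).

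**Figure D2:**
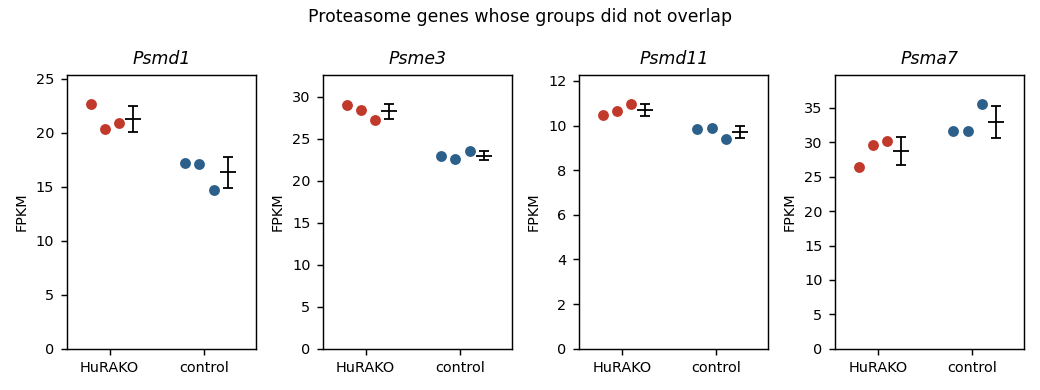
FPKM of Psmd1, Psme3, Psmd11 and Psma7 in each mouse (points; HuRAKO left in red, control right in blue), with mean and SD (n = 3 each). All 3 HuRAKO mice lie above all 3 control mice for Psmd1, Psme3 and Psmd11 and below them for Psma7.

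The inducible catalytic subunits varied far more between mice than the constitutive core, and 1 mouse set their values. Psmb8, the counterpart of Psmb5, was measured at 22.6, 22.2 and 22.6 FPKM in HuRAKO mice and at 21.9, 25.4 and 79.4 FPKM in control mice. Psmb9, the counterpart of Psmb6, had 4.89, 7.30 and 6.45 FPKM in HuRAKO mice and 5.07, 6.11 and 25.4 FPKM in control mice. For Psmb10, the counterpart of Psmb7, the values were 22.1, 18.2 and 23.7 FPKM in HuRAKO mice and 13.4, 17.7 and 50.7 FPKM in control mice. In each case control mouse 3 was far above the other 5 mice. These had a CV of 6.13% for Psmb8, 16.8% for Psmb9 and 21.2% for Psmb10, where the median over all genes in the same 5 mice was 15.6%. Control mouse 3 exceeded the mean of control mice 1 and 2 by a ratio of 3.36 for Psmb8, 4.54 for Psmb9 and 3.26 for Psmb10. The macrophage and T and NK cell markers given above moved with it, as did 12 of 13 genes of the interferon gamma axis. Their part in the level of these subunits was not tested.

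The fitted differences followed that mouse. They were -0.63 ± 0.46 SE for Psmb8, -0.55 ± 0.55 SE for Psmb9 and -0.11 ± 0.46 SE for Psmb10, with adjusted p of 0.787, 0.836 and 0.967 from limma, and the median of the 3 genes was -0.55. With control mouse 3 left out the same median was 0.12. Psmb8 then differed by -0.06 ± 0.11 SE, Psmb9 by 0.12 ± 0.18 SE and Psmb10 by 0.44 ± 0.17 SE (95% confidence interval 0.01 to 0.87, adjusted p = 0.497 from limma), so the sign of Psmb9 and of Psmb10 turned. Without that mouse 3 of 48 members passed an unadjusted p of 0.05, Psmb10, Psmd1 and Psme3, all higher in HuRAKO mice, beside 9.95% of all genes. The CV over mice of Psmb8, Psmb9 and Psmb10 had a median of 71.3% with all 6 mice and of 16.8% without control mouse 3.

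Constitutive counterparts went the other way in that mouse. Psmb5, the chymotrypsin-like subunit, was measured at 57.6, 50.3 and 53.5 FPKM in HuRAKO mice and at 52.6, 49.0 and 42.7 FPKM in control mice. Psmb6 had 46.0, 47.2 and 48.9 FPKM in HuRAKO mice against 48.4, 47.3 and 43.4 FPKM in control mice. Psmb7, the trypsin-like subunit, had 32.2, 28.1 and 26.9 FPKM in HuRAKO mice against 31.2, 27.4 and 22.8 FPKM in control mice. Control mouse 3 had the lowest value of each, and the groups overlapped in all 3 (log2 differences 0.16 ± 0.12, 0.03 ± 0.10 and 0.10 ± 0.15 SE, adjusted p 0.79, 0.957 and 0.885 from limma).

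**Figure D3:**
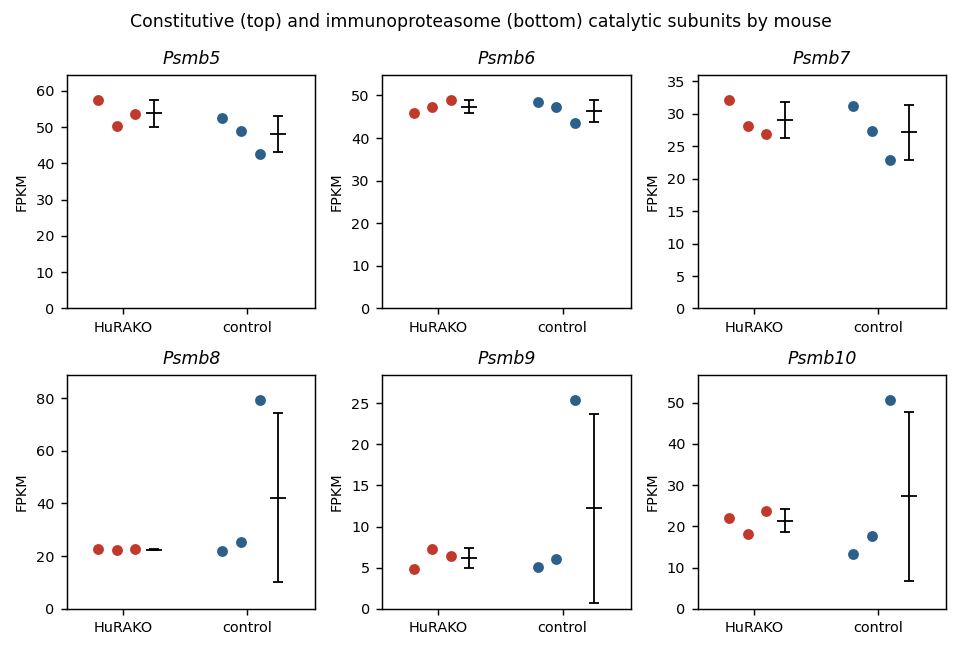
FPKM of the constitutive catalytic subunits Psmb5, Psmb6 and Psmb7 (top) and of their inducible counterparts Psmb8, Psmb9 and Psmb10 (bottom) in each mouse (points; HuRAKO left in red, control right in blue), with mean and SD (n = 3 each). Control mouse 3 is the highest point in every lower panel, at 79.4, 25.4 and 50.7 FPKM, and the lowest in every upper panel.

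Because both subunits of a pair occupy the same place in the core, their FPKM ratio was taken in each mouse. Psmb8/Psmb5 was 0.393, 0.442 and 0.423 in HuRAKO mice and 0.415, 0.518 and 1.86 in control mice. Psmb9/Psmb6 was 0.106, 0.155 and 0.132 in HuRAKO mice and 0.105, 0.129 and 0.585 in control mice. Psmb10/Psmb7 was 0.687, 0.648 and 0.88 in HuRAKO mice and 0.429, 0.645 and 2.22 in control mice. Control mouse 3 was above all others in each ratio, and its gene FPKM of Psmb8 and Psmb10 exceeded those of the constitutive counterparts. Among the leading transcripts of this mouse, Psmb8-201 (124 FPKM) was likewise above Psmb5-201 (42.0 FPKM). Psmb10-201 (55.0 FPKM) was below Psmb7-201 (65.2 FPKM), so the order within that pair depended on whether gene or transcript values were used. Two-sided exact permutation tests of the log2 ratios gave p = 0.3, 0.9 and 1 (0.9, 1 and 1 adjusted over the 3 ratios), where 3 mice against 3 allow no p below 0.1. Without control mouse 3 the mean log2 ratio differed by -0.15 for Psmb8/Psmb5, 0.15 for Psmb9/Psmb6 and 0.48 for Psmb10/Psmb7 (p = 0.6, 0.4 and 0.2 in the same exact test, where 3 mice against 2 allow no p below 0.2).

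Control mouse 3 was the highest of the 6 mice in 19 of 48 members, as in 27.1% of all genes tested. These comprised 3 of 3 inducible catalytic subunits, both PA28 subunits Psme1 and Psme2, 5 of 7 alpha subunits, 3 of 4 structural beta subunits, 0 of 3 constitutive catalytic subunits and 0 of 17 subunits of the 19S particle. The median deviation of this mouse from the mean of all 6 was 1.46 for Psmb8, Psmb9 and Psmb10, 0.69 for Psme1 and Psme2, 0.10 for the constitutive core and 0.00 for the 19S particle.

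**Figure D4:**
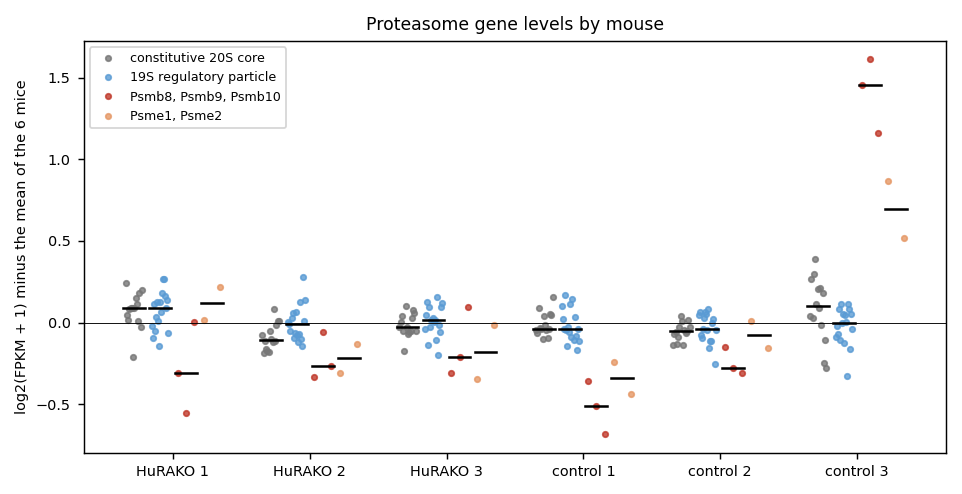
Deviation of each proteasome gene from its mean over the 6 mice on the log2(FPKM + 1) scale (y axis), by mouse (x axis), for the constitutive 20S core, the 19S particle, the inducible catalytic subunits and PA28 alpha and beta (points, genes; black bars, medians). The inducible subunits of control mouse 3 have a median of 1.46, and no other bar passes 0.70 in either direction.

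Of the activators, PA28 alpha (Psme1) was measured at 28.0, 22.2 and 21.5 FPKM in HuRAKO mice and at 23.3, 27.8 and 51.4 FPKM in control mice. PA28 beta (Psme2) had 56.1, 43.8 and 47.6 FPKM in HuRAKO mice and 35.2, 43.1 and 69.3 FPKM in control mice. Both overlapped between the groups, with control mouse 3 highest (log2 differences -0.43 ± 0.29 and 0.05 ± 0.25 SE, adjusted p 0.782 and 0.979 from limma), and without that mouse the differences were -0.10 ± 0.16 and 0.32 ± 0.16 SE.

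Psme3 (PA28 gamma) encodes a nuclear activator that works on the core without ubiquitin. It was the other member past an unadjusted p of 0.05, at 29.0, 28.4 and 27.3 FPKM in HuRAKO mice and 22.9, 22.6 and 23.5 FPKM in control mice. The groups were well apart and each was tight, with means of 28.2 ± 0.892 FPKM in HuRAKO mice and 23.0 ± 0.489 FPKM in control mice (SD, n = 3 each). The ratio of the means was 1.23, below the fold of the study's thresholds, and the log2 difference was 0.29 ± 0.09 SE (95% confidence interval 0.07 to 0.50, adjusted p = 0.51 from limma). It passed an unadjusted p of 0.05 in 13 of 15 alternatives, and missed it without control mouse 2 and without HuRAKO mouse 1. Psme4 (PA200), a nuclear activator known for its role in testis, had 15.9, 13.4 and 14.4 FPKM in HuRAKO mice and 17.8, 15.1 and 14.9 FPKM in control mice. The inhibitor Psmf1 (PI31) had 3.44, 3.93 and 4.27 FPKM in HuRAKO mice and 4.20, 4.06 and 4.53 FPKM in control mice. Neither passed the test (log2 differences -0.12 ± 0.12 and -0.11 ± 0.11 SE, adjusted p 0.832 for both from limma).

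Assembly chaperones gave no call. The 4 chaperones of the core (Psmg1 to Psmg4), which guide alpha ring assembly, ranged from -0.20 to 0.04, and the 3 of the 19S base (Psmd5, Psmd9 and Psmd10) from -0.04 to 0.14. An unadjusted p under 0.05 was reached by 0 of 7, beside 8.03% of all genes tested, a share at which so few genes could give no call. Psmg2 had the smallest p of these, at 8.23, 9.42 and 10.4 FPKM in HuRAKO mice and 10.2, 11.1 and 11.3 FPKM in control mice, with overlap (-0.20 ± 0.12 SE, adjusted p = 0.743 from limma). Psmd5, which is released from the 19S base before the core binds, lay between 4.55 and 4.76 FPKM in 5 mice and at 3.18 FPKM in control mouse 3. Psmc3ip, whose product acts in meiotic recombination and not in the proteasome, was the weakest member, at 0.816, 0.862 and 0.369 FPKM in HuRAKO mice and 0.563, 1.19 and 0.804 FPKM in control mice.

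At the transcript level Psme2 gave the one adjusted call. It has 2 listed transcripts on the minus strand of chromosome 14 (GRCm38) that share all exons but the first. Exon 1 of Psme2-201 spans bases 55591022 to 55591101 and holds 24 coding bases, and exon 1 of Psme2-208 spans 55590842 to 55591087 and holds 48. The transcripts start 14 bases apart, and the first exon of Psme2-201 ends upstream of the start codon used by Psme2-208, so the mRNAs begin their reading frames in different sequence. Those coding starts are printed because they tell the transcripts apart. Capitals mark bases of exon 1 and lower case the first 30 bases of exon 2 (GENCODE M21, 5′ to 3′). The single-exon gene Psme2b on chromosome 11 is shown in the same frame, with capitals over the stretch that corresponds to exon 1 of Psme2-208.
Psme2-201: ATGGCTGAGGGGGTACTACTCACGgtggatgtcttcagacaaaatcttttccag
Psme2-208: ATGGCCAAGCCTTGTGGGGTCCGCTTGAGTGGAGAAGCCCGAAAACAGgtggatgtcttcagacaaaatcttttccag
Psme2b-201: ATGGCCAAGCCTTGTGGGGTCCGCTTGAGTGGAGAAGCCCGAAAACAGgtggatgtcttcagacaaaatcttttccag
Psme2b matched Psme2-208 at all of these bases, with 0 mismatches, and with 5 mismatches over 794 aligned bases in all (99.4% identity). The sequence across the junction of exons 1 and 2 of Psme2-208 also occurs in Psme2b, whereas that of Psme2-201 does not. Reads could thus be assigned to either gene, so the levels of Psme2b, of Psme2-208 and of the Psme2 gene are uncertain. Outside exon 1 nothing separates the 2 Psme2 transcripts. Psme2-201 has 14 exonic bases that Psme2-208 lacks, Psme2-208 has 181 that Psme2-201 lacks, and 781 are shared.

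Psme2-208 was the leading transcript in every mouse, at 78.3, 52.6 and 59.8 FPKM in HuRAKO mice and 52.3, 64.9 and 92.6 FPKM in control mice, and its groups overlapped (log2 difference -0.12 ± 0.27 SE, adjusted p = 0.951 from limma). Psme2-201 was listed at 25.03, 25.86 and 29.06 FPKM in HuRAKO mice and at 0.0408, 0 and 1.25 FPKM in control mice. Its estimated level was thus substantial in all HuRAKO mice and near 0 in all control mice. Reads were not examined, so presence or absence of this mRNA was not tested. The log2 difference was 4.38 ± 0.34 SE (95% confidence interval 3.54 to 5.21, adjusted p = 0.0323 from limma), and it was the 1 of 79 tested proteasome transcripts past an adjusted p of 0.05, as were 14 of 23233 transcripts in all (0.0603%). With the replicate number as a block the adjusted p was 0.271 from limma at the same difference. The adjusted p ranged from 0.00516 to 0.271 over 15 alternatives and was under 0.05 in 7 of them. Leaving out a mouse gave 0.0917 without control mouse 1, 0.111 without control mouse 2, 0.00516 without control mouse 3, and 0.117, 0.0942 and 0.107 without HuRAKO mice 1, 2 and 3. The unadjusted p was under 0.05 in all 15.

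In the sum of both transcripts, Psme2-201 took 24.2%, 33.0% and 32.7% in HuRAKO mice and 0.078%, 0% and 1.33% in control mice. The groups were separated by 29.5 percentage points on average (p = 0.1 in a two-sided exact permutation test, the smallest that 3 mice against 3 allow). This was so while the FPKM of the Psme2 gene overlapped between the groups, as did the sum of both transcripts. That sum was 103, 78.5 and 88.8 FPKM in HuRAKO mice and 52.4, 64.9 and 93.8 FPKM in control mice. It exceeded the gene FPKM in every mouse, so gene values here are not totals of the transcript values.

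**Figure D5:**
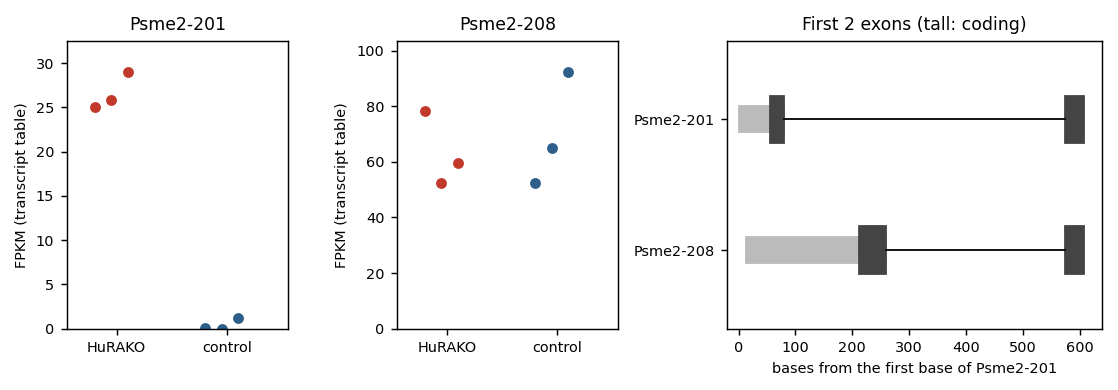
FPKM of Psme2-201 and Psme2-208 in each mouse (left and middle; points, HuRAKO left in red, control right in blue) and the first exons of both transcripts against the distance from the first base of Psme2-201 (right; tall boxes, coding; grey, untranslated; line, intron). Psme2-201 lies between 25.03 and 29.06 FPKM in HuRAKO mice and at or below 1.25 FPKM in control mice.

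Transcript estimates of other proteasome genes also switched between near 0 and high values, and not always along the genotypes. Psmc3, an ATPase gene, was steady in its gene FPKM. Its transcript Psmc3-203 had 0, 35.1 and 0 FPKM in HuRAKO mice and 0, 34.2 and 0 FPKM in control mice. This transcript thus appeared in mouse 2 of either group and nowhere else. Another of its transcripts, Psmc3-210, had 3.22, 3.76 and 2.80 FPKM in HuRAKO mice and 44.7, 5.48 and 3.50 FPKM in control mice, a single high value. Of the 24 proteasome genes with 2 or more listed transcripts, 4 (Psmc3, Psmc4, Psmd8 and Psmg4) changed their leading transcript between mice. In the whole table, 222 transcripts were listed at 0 in at least 1 mouse and at 10 FPKM or more in another, a limit chosen after the values were seen. The groups overlapped in 199 of them. HuRAKO mice were all higher in 13, Psme2-201 included, and all lower in 10, where 6.49% and 6.62% of all tested transcripts were.

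In all, 4 of 79 tested transcripts passed an unadjusted p of 0.05 in limma, where 6.52% of all transcripts did. The 4 were split into 2 higher (3.32% of all transcripts) and 2 lower (3.2%) in HuRAKO mice, and 2 of them passed with the replicate number as a block (Psme2-201 and Psmb8-203). The 2 lower ones, Psmb8-203 and Psmd12-203, reached the filter only through control mice, as Psme2-201 did through HuRAKO mice. Without the filter 7 passed, 5 higher and 2 lower, so the even split depended on it. Those added, Psma6-204, Psmd12-202 and Psmd6-206, were weakly expressed and higher in HuRAKO mice. Psmb8-203 was listed at 0.0433, 0 and 0 FPKM in HuRAKO mice and 2.13, 2.07 and 0.342 FPKM in control mice (log2 difference -1.21 ± 0.35 SE, adjusted p = 0.658 from limma), beside 35.7 FPKM of the main form Psmb8-201 in HuRAKO mice on average. Psmd12-203, from a lid subunit gene, was listed at 0 FPKM in all HuRAKO mice and at 11.02, 0.0332 and 8.14 FPKM in control mice (adjusted p = 0.757 from limma), where the leading form Psmd12-201 had 21.8, 35.4 and 25.3 FPKM. Another form, Psmd12-202, fell below the filter and went the other way, with 0.615, 1.10 and 0.937 FPKM in HuRAKO mice and 0 FPKM in all control mice. Psmd12 as a gene was steady, from 23.2 to 25.5 FPKM over the 6 mice. The study's thresholds were met by 3 transcripts (4.59% of all transcripts), Psme2-201 higher (2.31%) and Psmb8-203 and Psmd12-203 lower (2.28%) in HuRAKO mice.

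Further transcripts gave no call, with values as follows. Psme3-201 had 31.9, 30.8 and 29.6 FPKM in HuRAKO mice and 25.2, 24.4 and 25.2 FPKM in control mice, without overlap (0.29 ± 0.13 SE, adjusted p = 0.757 from limma). Psmc4-201 had 17.9, 15.5 and 16.1 FPKM in HuRAKO mice and 11.6, 14.8 and 12.8 FPKM in control mice (0.32 ± 0.16 SE, adjusted p = 0.779 from limma), while its other form Psmc4-206 overlapped. Psmb5-202 had 1.44, 2.46 and 2.03 FPKM in HuRAKO mice and 1.47, 1.33 and 0.972 FPKM in control mice, Psmb9-202 had 0.534, 0 and 0.691 FPKM in HuRAKO mice and 0.598, 1.08 and 0.884 FPKM in control mice, and Psma4-206 had 1.09, 1.81 and 1.598 FPKM in HuRAKO mice and 2.09, 1.87 and 1.95 FPKM in control mice. Of these 3 weakly expressed forms, Psma4-206 was without overlap. The ratio of the means was 1.57 for Psmb5-202 and 0.478 for Psmb9-202, with log2 differences of 0.39 ± 0.19 and -0.42 ± 0.25 SE (adjusted p 0.779 and 0.825 from limma). Transcripts with HuRAKO mice all above control mice numbered 5 of 79 (6.49% of all transcripts), and those with HuRAKO mice all below numbered 4 (6.62%).

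Genes that work with the proteasome were compared as lists. Of 18 partners (ubiquitin shuttles, deubiquitinases and others), 17 were tested with a median difference of 0.04, and 0 passed an unadjusted p of 0.05 in either direction (8.03% of all genes). All 6 genes of ubiquitin and its activating enzymes were tested, with a median of -0.07, and 0 passed, beside the same 8.03%. Of 11 regulators of proteasome genes, 1 was higher at an unadjusted p under 0.05 (3.86% of all genes) and 0 lower (4.16%), with a median of -0.03. The single gene was Nfe2l1 (Nrf1), a transcription factor known to raise proteasome genes when proteasome activity falls short. Nfe2l1 was measured at 36.1, 27.0 and 33.7 FPKM in HuRAKO mice and at 21.3, 27.7 and 21.4 FPKM in control mice, with overlap (log2 difference 0.44 ± 0.16 SE, adjusted p = 0.578 from limma).

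The interferon gamma axis, the known inducer of the immunoproteasome, had 13 of 13 genes tested and a median difference of -0.36, against a median of -0.01 over all genes. An unadjusted p under 0.05 was reached by 0 of the 13, beside 8.03% of all genes. Control mouse 3 was highest in 12 of the 13. Tap1, the peptide transporter gene next to Psmb9, had 6.67, 9.15 and 8.71 FPKM in HuRAKO mice and 6.47, 11.7 and 48.3 FPKM in control mice. It repeated the pattern of Psmb8 and Psmb9, with control mouse 3 apart and the other mice overlapping. Psmb9 and Tap1 are annotated on opposite strands of chromosome 17 and overlap by 212 bases, so reads from that stretch can be told apart only if strand was used in counting, which is not given in the sources used here.

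Promoters (250 bases before to 50 after the RefSeq start, GRCm38.p6) were at hand for 41 of the 48 members and were searched on both strands for TTCNNNGAA (the interferon gamma-activated site, GAS), GAAANNGAA (a core of interferon regulatory factor sites), TGACNNNGC (the antioxidant response element, also bound by Nrf1) and CCAAT. Of the 5 interferon-inducible genes Psmb8, Psmb9, Psmb10, Psme1 and Psme2, 1 held TTCNNNGAA (Psmb8), beside 8.36% of all promoters, and 1 held GAAANNGAA (Psme1), beside 9.05%. TGACNNNGC was found in 2 of 11 constitutive core promoters (Psmb5 and Psmb6) and in 2 of 14 of the 19S particle (Psmc6 and Psmd12), beside 16.8% of all, and CCAAT in 6 of 11 and 4 of 14, beside 42.7%. The window held the start of the leading transcript in 36 of the 41 members. In 3 (Psmb8, Psmb9 and Psmd13) every window lay wholly downstream of it, for Psmb8 from 155 to 454 bases after the start of Psmb8-201 and for Psmb9 from 184 to 483 bases after that of Psmb9-204, so the counts for these genes do not describe the promoters of the forms measured. An inducible and a constitutive gene whose windows held that start, Psme1 and Psmb5, are printed with the single match of each in capitals, so that no matches overlap. The Psme1 window lies on the plus strand at chr14:55578244-55578543, its match at 10 to 18 from the RefSeq start, which is 134 bases downstream of the start of the leading transcript Psme1-208. The Psmb5 window lies on the minus strand at chr14:54617946-54618245, its match at -47 to -39, and the RefSeq start is 27 bases downstream of that of Psmb5-201.
Psme1: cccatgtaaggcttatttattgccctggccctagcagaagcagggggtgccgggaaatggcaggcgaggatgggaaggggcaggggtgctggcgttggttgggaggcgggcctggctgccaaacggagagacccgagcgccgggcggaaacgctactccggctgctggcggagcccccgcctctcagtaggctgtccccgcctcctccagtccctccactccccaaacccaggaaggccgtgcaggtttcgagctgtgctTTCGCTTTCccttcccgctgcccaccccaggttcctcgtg
Psmb5: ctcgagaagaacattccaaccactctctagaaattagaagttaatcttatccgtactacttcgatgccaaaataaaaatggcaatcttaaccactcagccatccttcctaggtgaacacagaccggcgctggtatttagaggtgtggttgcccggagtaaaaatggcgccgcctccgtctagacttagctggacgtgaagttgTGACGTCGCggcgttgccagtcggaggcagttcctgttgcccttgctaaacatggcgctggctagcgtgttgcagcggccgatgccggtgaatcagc
A match describes letters in these windows and not bound sites. For Psme2, RefSeq gives 2 starts, 1 of which falls exactly on the first base of Psme2-201.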

How the data were processed

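RNA-seq of epididymal fat from 3 HuRAKO and 3 control mice was used. The tables that the authors deposited hold the FPKM of each mouse, 1 for genes and 1 for transcripts. Bowtie 0.12.2 and GRCm38 are named in the submitters' processing notes, and the program that computed FPKM and the annotation are not given in the sources used here. Of 85 member transcripts, 80 were found in GENCODE M21 under the same versioned ID, all 80 at the same position. Methods and labels name different library kits and instruments. Depth is unknown, so precision comes from the spread between mice, which may in part be technical. All columns of values were used (0 left out), and 1 emptied line per table is not analysed here.

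Values were taken as log2(FPKM + 1). Features whose mean reached 0.5 FPKM were fitted with limma 3.58.1 in R 4.3.3 (two-sided, Benjamini-Hochberg over the whole table), and only members are printed. Ratios and shares were compared by exact permutation tests (scipy 1.17.1, Python 3.11.15). The fit was tested on simulated data. Replicate numbers occur in both groups without a stated meaning. Deviations of same-numbered mice from their group means correlated with r = 0.101, 0.175 and 0.22, each over the limit of 0.1. HuRAKO mouse 2 and control mouse 1, which differ in number, also passed it at r = 0.106. Values with the number as a block are given where a call changes.

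Members, lists and tests were chosen with earlier results of these data known. Named were the catalytic subunits, activators and inhibitor, the 5 genes and transcripts with the smallest p in each direction, those with the highest and lowest mean, and all Psme2 transcripts, and others where a small count needed them. Alternatives were another pseudocount (0.1), filters (none, 5 FPKM), scalings, variance models, the replicate block and leaving out each mouse. Promoter and transcript sequences came from RefSeq and GENCODE M21.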

Additional observations from a re-analysis of the deposited data

How the results depend on the processing

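Of the proteasome genes, 2 passed an unadjusted p of 0.05 in limma, and leaving out a mouse gave 1 to 3. Counts past the study's thresholds and past an adjusted p were 0 for genes, and 0 in the alternatives. Transcripts past an unadjusted p, 4 in the report, were 7 without a filter (5 higher and 2 lower) and 7 without moderation. They were 2 after centring on the median of all genes, 2 with array weights and 2 with the replicate block, and 2 to 4 when a mouse was left out. Those past the study's thresholds, 3 in the report, were 5 without a filter (3 higher and 2 lower) and 1 with a minimum mean of 5 FPKM. They were 2 after centring on the median, without moderation, with array weights and with the replicate block. Leaving out a mouse gave 2, except that 3 remained without control mouse 2. The count past an adjusted p, 1 in the report, was 0 with a pseudocount of 0.1, 0 without moderation and 0 with the replicate block, and 0 to 1 when a mouse was left out; without control mouse 2 the transcript called was Psmd12-203 in place of Psme2-201. The replicate block changed no other call of a named gene, and it also ended the unadjusted calls of Psmd1-201 and Psmd12-203.

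Directions turned as follows, each as a log2 difference, with the range over the fits that leave out a mouse in brackets. Without control mouse 3 they turned for Psmb6 (-0.016; range -0.016 to 0.061), Psmb7 (-0.013; -0.013 to 0.20), Psmb9 (0.12; -0.94 to 0.12), Psmb10 (0.44; -0.48 to 0.44), Psme2-208 (0.10; -0.30 to 0.10) and the ratios Psmb9/Psmb6 (0.15; -1.09 to 0.15) and Psmb10/Psmb7 (0.48; -0.71 to 0.48). Array weights turned Psmb10 (0.21). Psme2 turned without control mouse 1 (-0.16), control mouse 2 (-0.017) or HuRAKO mouse 1 (-0.049), with a range of -0.16 to 0.32. Psmc3ip turned without HuRAKO mouse 3 (0.0030; -0.25 to 0.0030) and Psme2-208 without HuRAKO mouse 2 (0.0088). None of these genes passed the test in the report. The cause of these changes was not tested.

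With 3 mice per group and no counts, a small change of a subunit of the core could not be told from none, and transcripts that share nearly all exons rest on few distinguishing bases.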
